A study of Homo sapiens with 16 samples.

Results

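Of 10288 regions that carried acetylation of histone H3 at lysine 27 (H3K27ac) in at least 1 library of Toledo lymphoma cells, 390 had a peak in both libraries from cells treated with a CARM1 inhibitor and in neither DMSO library (3.79% of all regions). These gained regions were found by merging the peaks of the 4 H3K27ac lists wherever they overlapped or touched, so they were chosen by the presence and absence of H3K27ac peaks and their acetylation is no result. Toledo is a cell line from a diffuse large B-cell lymphoma. It was grown in suspension in flasks for 6 days, either with TP-064 at 5 uM, a compound that inhibits CARM1, an arginine methyltransferase, or with DMSO, its solvent. Each treatment had 2 libraries for each of H3K27ac, H3K4me1 and H3K4me3, which makes 12 ChIP libraries, and the 4 input samples of the 16 were not analysed here. The study's title concerns the effect of CARM1 inhibition on histone acetyltransferase activity where CREBBP or EP300 carries mutations.

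CREBBP and EP300 are the acetyltransferases that place H3K27ac at active promoters and enhancers. H3K4me3 is the mark of promoters. H3K4me1 covers enhancers, including ones that are primed but not acetylated, and flanks promoters. CARM1 methylates arginines of histone H3 and of coactivators, CREBBP and EP300 among them.

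The H3K27ac lists held 4771 and 4595 peaks with the inhibitor and 7885 and 4016 with DMSO. The H3K4me1 lists held 4094 and 4242 peaks with the inhibitor and 25058 and 9673 with DMSO, and for H3K4me3 there were 10317 and 10048 against 12476 and 11481 peaks. The depth of the libraries is unknown, and a peak that is absent from a list may lie below the caller's threshold. The inhibitor libraries all came from lane 4 and the DMSO libraries from lane 3, and an effect of the lane cannot be told apart from that of treatment. Of 8 B-cell markers, 6 had H3K4me3 at their start in all 4 libraries, CD79A and CD22 in some. None of 7 T and NK cell or 6 myeloid markers had it in any library, and of 7 epithelial and stromal markers only COL1A1 had it in some libraries.

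The number of gained regions rises by construction when a library is left out, because the rule then has fewer conditions. Without the first inhibitor library it would be 1334, without the second 1112, and without the first DMSO library, the longest list, 1069. Without the second DMSO library it was 405. The summed peak width of a gained region had a median of 1924 bp in the first inhibitor library and 1711 bp in the second, against 2458.5 and 2314 bp at the 1878 regions kept in all 4 libraries. Just outside the rule lay 702 regions with a peak in the first inhibitor library alone (median 1326.5 bp) and 920 in the second alone (1312 bp). Another 665 regions had peaks in both inhibitor libraries and also in the first DMSO library, with medians of 2016 and 1852 bp with the inhibitor and 2017 bp with DMSO, and 13 had them in both inhibitor libraries and the second DMSO library. The nearest DMSO peak of H3K27ac lay a median of 48.8 kb from a gained region. It lay within 1 kb of 14 regions and over 100 kb from 130 (33.3%).

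The gained regions at gene starts differed in sequence and methylation, and 4 promoters are shown as examples. They are the 250 bases before and 50 after the start, from RefSeq (GRCh38.p14), written 5′ to 3′ on the gene's strand with every CG dinucleotide in capitals, and each lies wholly inside a gained region. RGS2, which speeds the shut-off of Gq signalling, and HBEGF, a growth factor that binds the EGF receptor, had H3K4me3 in all 4 libraries. YPEL4, a member of the Yippee family, had H3K4me3 in both inhibitor libraries and no DMSO library. QPRT, an enzyme of NAD synthesis, had H3K4me3 in none.
RGS2, chr1:192808789-192809088, plus strand: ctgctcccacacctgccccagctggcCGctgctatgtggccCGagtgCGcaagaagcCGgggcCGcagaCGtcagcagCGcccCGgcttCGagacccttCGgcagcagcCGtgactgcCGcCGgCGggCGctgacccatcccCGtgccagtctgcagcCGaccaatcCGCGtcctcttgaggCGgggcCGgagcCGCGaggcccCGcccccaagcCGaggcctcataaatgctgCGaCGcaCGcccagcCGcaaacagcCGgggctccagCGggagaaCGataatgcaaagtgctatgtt
HBEGF, chr5:140346554-140346853, minus strand: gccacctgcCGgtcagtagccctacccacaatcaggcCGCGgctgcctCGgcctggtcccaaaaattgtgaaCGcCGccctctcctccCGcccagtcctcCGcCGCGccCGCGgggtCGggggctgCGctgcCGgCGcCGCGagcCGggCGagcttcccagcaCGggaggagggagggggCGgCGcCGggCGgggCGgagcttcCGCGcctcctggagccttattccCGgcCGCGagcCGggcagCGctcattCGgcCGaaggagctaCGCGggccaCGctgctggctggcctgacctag
YPEL4, chr11:57649863-57650162, minus strand: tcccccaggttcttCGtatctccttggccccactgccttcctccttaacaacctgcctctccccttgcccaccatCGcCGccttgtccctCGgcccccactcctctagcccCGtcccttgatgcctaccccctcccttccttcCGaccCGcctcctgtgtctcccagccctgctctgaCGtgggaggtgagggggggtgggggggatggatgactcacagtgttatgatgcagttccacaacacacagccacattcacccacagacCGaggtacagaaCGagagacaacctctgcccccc
QPRT, chr16:29678930-29679229, plus strand: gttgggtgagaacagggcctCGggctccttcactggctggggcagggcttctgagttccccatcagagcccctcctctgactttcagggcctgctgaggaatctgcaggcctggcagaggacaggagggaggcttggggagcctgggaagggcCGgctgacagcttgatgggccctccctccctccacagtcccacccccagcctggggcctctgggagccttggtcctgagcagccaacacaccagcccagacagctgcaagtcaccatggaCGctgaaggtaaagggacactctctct

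These promoters held 32 CG dinucleotides at RGS2, 38 at HBEGF, 10 at YPEL4 and 3 at QPRT. Among all 29 tabulated promoters whose start fell inside a gained region, leaving out chromosome 8, the median was 27, against 22 over all 15812 promoters of the table. The 23 with H3K4me3 in all 4 libraries had a median of 30 and a range of 7 to 54. The 4 with H3K4me3 in no library, those of FHIT, LOC107985729, QPRT and, named after its value was seen, AVPR2, had a median of 4.5 and at most 15. The lowest of these values, 0, is that of FHIT, whose listed start lies inside the body of its RefSeq gene. The GC box GGGCGG, searched on both strands, was present in 22 of the 29 (75.9%), against 58.5% of all promoters in the table. CCAAT, likewise on both strands, was present in 41.4% against 36.3%, and TATAAA in 0 of 29 against 9.64%. A match of these letters is a description of the sequence and not of a bound factor.

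Gained regions lay mostly away from gene starts. Only 60 of 390 (15.4%, 95% Wilson interval 12.1 to 19.3) were within 2 kb of the start of a protein-coding gene, against 48.3% of kept regions, 66.7% of the 812 lost regions and 41.4% of all regions. Another 191 (49.0%) were elsewhere in a gene body, against 28.0% of kept regions, and 139 (35.6%) were between genes, against 23.6%. These intervals cover counting error only. For 4162 of the 19974 protein-coding genes either end counted as a start, so some of the 60 may lie at the other end of a gene. With both ends of every gene counted, the share was 16.9%. Without the first inhibitor library 9.07% of the regions would be at a gene start, and without the first DMSO library 23.1%. Regions found in 1 inhibitor library alone were also rarely at a gene start, 14.2% for the first and 6.52% for the second, and those shared with the first DMSO library were there in 28.1%.

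**Figure D1:**
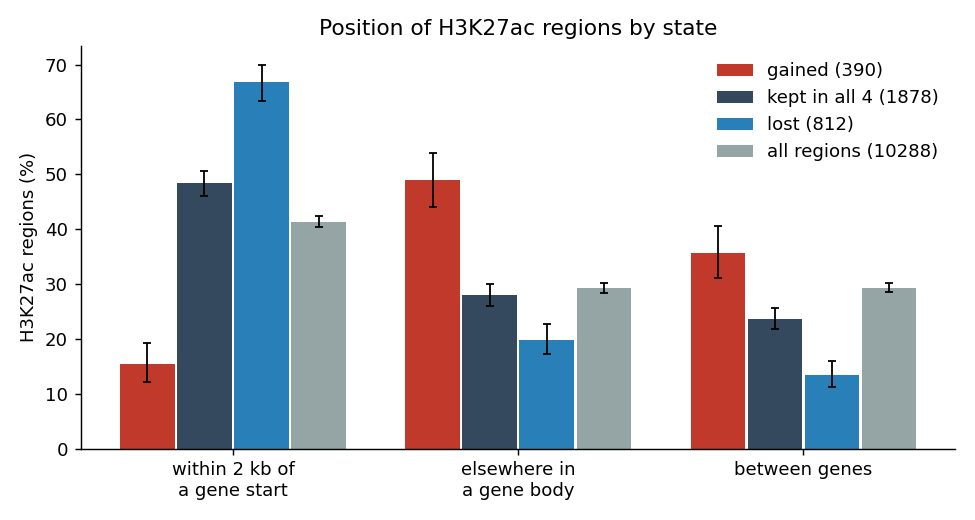
Share of H3K27ac regions (percent) within 2 kb of a gene start, elsewhere in a gene body and between genes, for gained, kept, lost and all regions, with bars for 95% Wilson intervals. The gained regions have the lowest share at gene starts, 15.4%, and the highest in gene bodies, 49.0%.

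The median distance from a gained region to the nearest gene start was 34.27 kb, against 4.03 kb for kept regions, 0 for lost regions and 10.41 kb for all. Gained regions were over 50 kb away in 41.5% of cases, kept regions in 22.6%. Their surroundings held fewer genes, with a median of 7 protein-coding genes within 500 kb, against 10 for kept, 12 for lost and 9 for all regions. By chromosome, between 1.52% of the H3K27ac regions (chromosome 19) and 6.09% (chromosome 18) were gained.

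**Figure D2:**
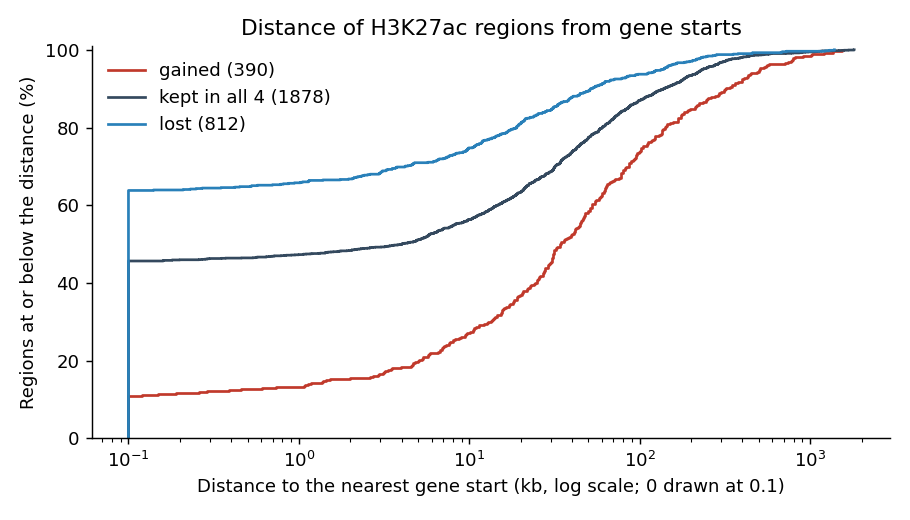
Cumulative share of regions (percent) by distance to the nearest gene start (kb, log scale, with 0 drawn at 0.1) for gained, kept and lost regions. The curve of the gained regions lies to the right, with a median of 34.27 kb.

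Gained regions were ranked by the within-list width percentile of their widest single peak, taking the lower of the 2 inhibitor libraries, while the widths given are sums over the peaks of a region. The first by rank, chr1:178931033-178936577, measured 5253 and 5376 bp in the inhibitor libraries, 9193 bp outside RALGPS2, an exchange factor for Ral GTPases. The second lay in the gene body of PPM1H, a protein phosphatase (chr12:62916287-62923727), with 6828 and 7008 bp, the largest summed widths of all gained regions. The next by rank were regions in AFG2A, an AAA ATPase, in TMCC2, in PEX5L and in MOB1B, a coactivator of the LATS kinases of the Hippo pathway. None of the 12 of highest rank was within 2 kb of a gene start. At the other end of the ranking were regions in USP7, a deubiquitinase (774 and 1157 bp), and 263320 bp from CXCR4, a chemokine receptor (1207 and 731 bp).

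H3K4me1 was present at most gained regions in the first DMSO library and at a minority in the other 3. It was found at 26.9% and 28.7% of them with the inhibitor (mean 27.8 ± 1.27, SD, n = 2) and at 72.8% and 37.7% with DMSO (55.3 ± 24.8, SD, n = 2). The inhibitor libraries were both below the DMSO libraries, by 27.4 percentage points on average, with an exact two-sided permutation p of 0.333, the smallest that 2 against 2 libraries allow. The values were 34.1% and 34.6% against 85.5% and 57.0% at kept regions and 17.6% and 17.7% against 61.6% and 32.7% over all regions, so the lower share with the inhibitor was not limited to gained regions. Because the DMSO lists of H3K4me1 were longer, the comparison was repeated with the widest 4094 peaks of each list. The share was then 26.9% and 28.0% with the inhibitor and 25.6% and 20.3% with DMSO, a difference of 4.49 points in the opposite direction. Without the first DMSO library the difference was -9.87 points, and without the second -45.0.

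**Figure D3:**
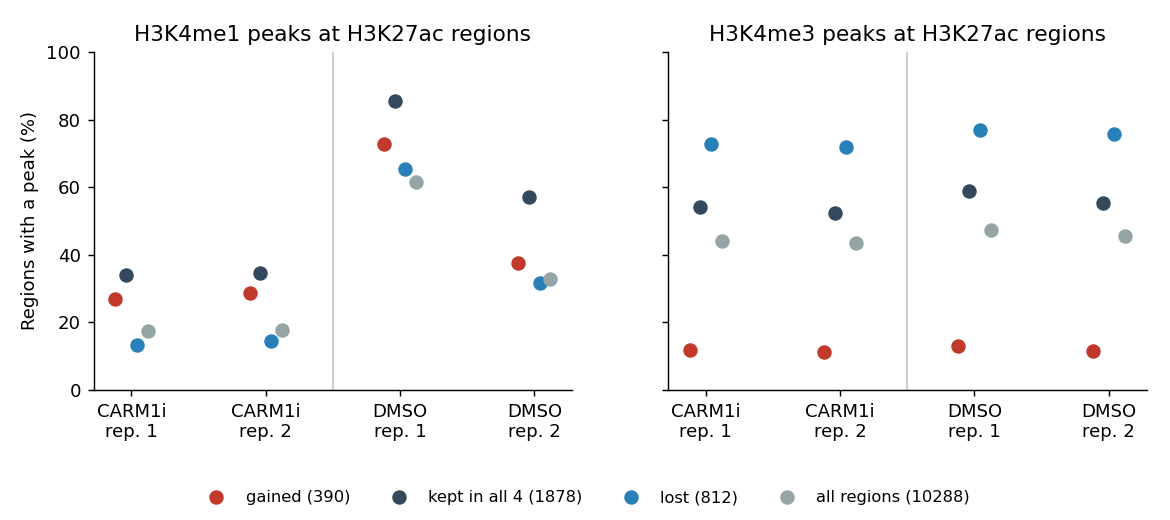
Percent of gained, kept, lost and all H3K27ac regions with an H3K4me1 peak (left) or an H3K4me3 peak (right) in each inhibitor (CARM1i) and DMSO library, 1 point per library. For H3K4me3 the gained regions sit between 11.3% and 13.1% in every library, below the other groups.

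By region, 106 of the 390 had H3K4me1 in the first DMSO library alone, 90 in no library, 53 in all 4 and 44 in both DMSO libraries only. Of the 144 gained regions with H3K4me1 in both DMSO libraries, 52.1% had it in the first inhibitor library and 54.2% in the second, against 57.3% and 56.6% of 1065 kept regions. The mean difference between gained and kept regions was -3.82 points, but -10.3 away from gene starts and 1.19, in the opposite direction, with the widest peaks. It was missing from both inhibitor libraries at 44 of the 144 (30.6%), against a background of 38.9% over all H3K27ac regions with H3K4me1 in both DMSO libraries, 30.3% at kept regions and 47.4% at lost regions. Only 2 gained regions had H3K4me1 in both inhibitor libraries and neither DMSO library, one 182762 bp from APCDD1, a Wnt inhibitor, and one in the gene body of SPAG1, against a background of 0.0778% of all regions. At the region near APCDD1 the H3K4me1 peaks measured 1329 and 873 bp with the inhibitor, and neither DMSO list had one.

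H3K4me3 was rare at gained regions, and the values of the 2 treatments overlapped. It was found at 11.8% and 11.3% of them with the inhibitor (11.5 ± 0.363, SD, n = 2) and at 13.1% and 11.5% with DMSO (12.3 ± 1.09, SD, n = 2), a difference of -0.77 points with an exact permutation p of 0.667. At kept regions it was found at 54.2% and 52.5% with the inhibitor and at 58.9% and 55.3% with DMSO. Of the gained regions, 335 had H3K4me3 in no library and 40 in all 4. Among the 60 at gene starts, 37 (61.7%) had it in all 4 libraries and 19 in none. Of the kept and lost regions at gene starts, 92.7% and 96.1% had it in all 4. In each kind, either end counted as a start for genes without strand. Some of the 60 may therefore lie at the other end of a gene, and these shares do not describe promoters alone. Where both DMSO libraries had H3K4me3 (45 gained regions), it was missing from both inhibitor libraries at 2 (4.44%), against a background of 3.68%. These were a region nearest to FOXN3 and one nearest to PAFAH2, named after their values were seen.

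At 3 gained regions H3K4me3 was present in both inhibitor libraries and neither DMSO library, against a background of 0.0778% of all regions, which is 8 in all. One covered the YPEL4 start, where the H3K4me3 peaks measured 2118 and 2014 bp with the inhibitor. Another lay inside ZNF106, a zinc-finger gene, at chr15:42455471-42459101, with H3K4me3 peaks of 2318 and 2182 bp. The last was 111963 bp from SPRY2, a feedback inhibitor of receptor tyrosine kinase signalling, with 1777 and 1139 bp. The ZNF106 region carried no H3K4me1 in any library, the YPEL4 region carried it in all but the first inhibitor library, and the region near SPRY2 carried it in the first DMSO library alone.

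The width of methylated regions was compared where a mark was present in all 4 libraries. The H3K4me3 region at HBEGF measured 5817 and 4415 bp with the inhibitor, against 3500 and 2941 bp with DMSO. The one inside PROX1, a homeobox transcription factor, measured 5826 and 4279 bp against 3303 and 3118 bp. The one at TNFRSF13C, the receptor for the B-cell survival factor BAFF, measured 2475 and 2326 bp against 1830 and 1471 bp. Strand was not used for TNFRSF13C, so which end of the gene lies there was not settled. These 3 of 38 H3K4me3 regions touching gained regions (7.89%) were wider in both inhibitor libraries than in either DMSO library, against a background of 0.633%. They were named after their widths were seen. Narrower in both inhibitor libraries were 20 of the 38 (52.6%), against a background of 81.9%. The median log2 ratio of the width, inhibitor over DMSO, was -0.16 for regions touching gained regions, -0.22 for those touching kept, -0.30 for those touching lost and -0.27 for all 9477.

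Of the 62 H3K4me1 regions touching gained regions, 3 were wider in both inhibitor libraries (4.84%), against a background of 0.767%, and 30 were narrower (48.4%), against 77.3%. The wider ones, again named after their widths were seen, lay at AFG2A (2764 and 2634 bp with the inhibitor, 2274 and 1565 bp with DMSO), QSOX1, a sulfhydryl oxidase (9328 and 9129 against 7727 and 5973 bp), and SIGLEC15, a sialic acid-binding receptor (3073 and 2491 against 2275 and 1944 bp). The median log2 ratio was -0.54 for those touching gained regions, -0.87 for those touching kept, -1.06 for those touching lost and -0.73 for all 1826. The H3K4me1 regions touching gained regions had median widths with DMSO of 5243 and 3887 bp, close to the 5212 and 3894.5 bp of all. Set relative to all regions library by library, they were wider with the inhibitor than with DMSO by 0.23 on the log2 scale for H3K4me1 and 0.16 for H3K4me3, each with an exact permutation p of 0.333, the smallest possible. As a difference of median ratios, the H3K4me1 value was 0.19, or 0.11 without the second inhibitor library and 0.36 among regions of like DMSO width. The H3K4me1 and H3K4me3 libraries carry the same tags as the H3K27ac libraries that chose the regions, so what a preparation has in common was not tested.

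**Figure D4:**
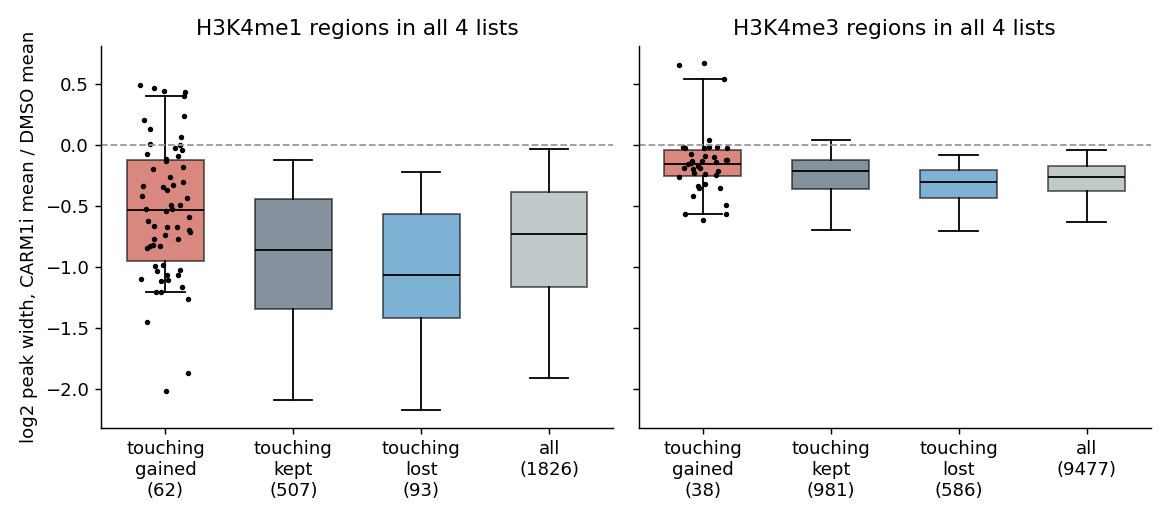
Log2 ratio of peak width (mean of the 2 CARM1i libraries over the mean of the 2 DMSO libraries) for H3K4me1 (left) and H3K4me3 (right) regions present in all 4 libraries, with the number of regions in brackets. Boxes show the quartiles and median, whiskers the 5th and 95th percentiles, and black dots the single regions that touch gained H3K27ac regions, whose medians are -0.54 and -0.16.

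A group of 68 gained regions (17.4%) had neither H3K4me1 nor H3K4me3 in any of the 8 libraries, against 0.319% of kept and 0.985% of lost regions and 18.3% of all. Regions seen in a single inhibitor library lacked both marks in 43.9% (first) and 72.8% (second), and those shared with the first DMSO library in 1.20%. The 68 were as wide as the other gained regions, with median H3K27ac widths of 1949.5 and 1747 bp against 1915 and 1709.5 bp. They lay a median of 68.1 kb from the nearest DMSO peak of H3K27ac and 38.31 kb from the nearest H3K4me1 peak of any library, and 2 were at a gene start. Among them were wide regions inside MOB1B (chr4:70969115-70972943, 3731 and 3634 bp) and inside BORCS5, a subunit of the complex that positions lysosomes (3788 and 3199 bp), and one near ENOX1 (3351 and 3439 bp).

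The gained regions at gene starts named here follow the same rank. ZBTB7B, a zinc-finger transcription factor that directs CD4 T-cell development, led them with H3K27ac peaks of 3268 and 2867 bp, and its H3K4me3 peaks measured 4255 and 3410 bp with the inhibitor and 6338 and 5407 bp with DMSO. LAG3, an inhibitory receptor of T cells, had H3K27ac peaks of 2722 and 3223 bp, 514 bp from a DMSO peak. Its region carried H3K4me1 in all 4 libraries and H3K4me3 in the first DMSO library alone. For LAG3, as for BIK and MAPKAPK2 below, strand was not used and either end of the gene counted as a start. Which end the region covers was therefore not settled. RGS2 had H3K4me3 of 2951 and 2710 bp with the inhibitor and 4005 and 2671 bp with DMSO. ARL3, a small GTPase of cilia, and RUFY3 had H3K4me3 in all 4 libraries and no H3K4me1 in any. BIK, a BH3-only activator of apoptosis, had H3K4me1 of 2698 and 2480 bp with the inhibitor against 4432 and 3997 bp with DMSO. The BIK region carried no H3K4me3, which does not describe the gene's start if the region lies at its other end. MAPKAPK2, a kinase downstream of p38, carried both marks throughout, with H3K4me1 of 10337 and 8279 bp against 16949 and 11317 bp.

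The 390 regions had 339 different nearest protein-coding genes, of which 298 were nearest to 1 gained region, 34 to 2 and 7 to 3 or more. Whether a nearest gene is regulated by the region was not measured. Among 14 gene lists drawn up for B-cell and lymphoma biology, with 342 genes in all, 204 genes were nearest to some H3K27ac region and 11 of these to a gained one (5.39%), against 5.55% of the 6106 nearest genes overall. SPRY1, SPRY2 and HBEGF came from the list of MAPK feedback and immediate early genes, of which 20 were nearest to any region. EBF1, a B-cell transcription factor, came from the B-cell identity list (1 of 23), and MME, the gene of CD10, from the germinal centre list (1 of 11). The EBF1 region lay in the gene body, 338556 bp from the gene start, and the MME region 159610 bp outside the gene. TNFRSF13B, the receptor TACI, and CXCR4 came from the list of germinal centre exit (2 of 15). ZMAT3, an RNA-binding p53 target (1 of 9), and NCOA3, a coactivator of nuclear receptors (1 of 28), were each the only one from their list. So was LAG3 (1 of 6). The counts per list are small and were not tested. No gene was found among the 27 cell cycle genes, 24 ribosomal protein genes, 13 cytokines, chemokines and receptors, 12 NF-kB targets, 3 epithelial and stromal markers and 1 myeloid marker that were nearest to any region.

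The nearest genes of distal gained regions differed in the marks at their own start. Of 288, 163 (56.6%) had H3K4me3 at their own start in all 4 libraries and 36.1% in none, against 63.8% and 28.1% for the nearest genes of distal kept regions, 53.6% and 35.7% for those of distal lost regions and 48.0% and 45.1% for all protein-coding genes. H3K27ac was at their start in all 4 libraries in 11.8% and in none in 60.4%, against 22.1% and 49.0% for distal kept regions, 11.9% and 60.7% for distal lost regions and 5.25% and 75.4% for all protein-coding genes. No nearest gene of a distal gained region had H3K4me3 at its start in both inhibitor libraries only, and 1 of all 19974 genes did.

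Most gained regions stood alone. Another gained region lay within 100 kb of 89 of the 390 (22.8%), against 49.4% for kept and 20.8% for lost regions among their own kind, and without the first DMSO library the share would be 34.9%. These shares depend on how many regions each kind has, 390, 1878 and 812. At 50 kb they were 18.97% for gained and 11.9% for lost regions, and at 250 kb 27.7% for gained and 33.3% for lost regions, so the order of gained and lost turned with the distance. Joined at 100 kb, the gained regions formed 301 single regions, 28 pairs, 7 groups of 3 and 3 groups of 4. A kept region lay within 5 kb of 5.38% of the gained regions, 4.06% of the lost and 4.61% of the other regions. It lay within 25 kb of 16.2% of the gained, 11.7% of the lost and 12.7% of the other regions.

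A group of 4 lay inside SERINC5, a membrane protein that restricts retroviral infection, over 60.24 kb (chr5:80180404-80240643). Their H3K27ac peaks measured between 775 and 4333 bp per region and library. H3K4me1 was present at 3 of the 4 in both DMSO libraries and at none in either inhibitor library. H3K4me3 lay at the SERINC5 start in all 4 libraries, with no H3K27ac there. The other groups of 4 lay around SNX9, a sorting nexin of endocytosis, over 121.4 kb with 1 region at its start, and inside VPS13B over 161.8 kb on chromosome 8.

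**Figure D5:**
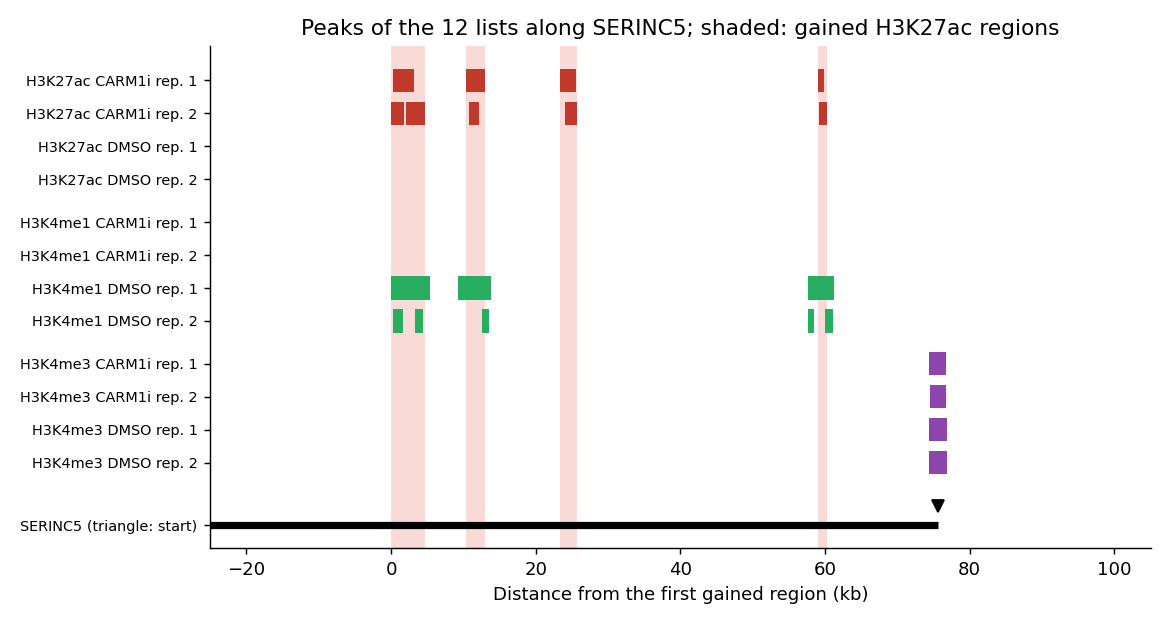
Peaks of the 12 lists around SERINC5 by distance from the first gained region (kb), 1 row per library, with gained H3K27ac regions shaded and the gene and its start drawn below. H3K4me1 peaks lie at 3 of the 4 gained regions in the DMSO rows, and the inhibitor (CARM1i) rows hold none.

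The groups of 3 differed in their methylation. The one on chr1:206561841-206687043, spanning RASSF5, DYRK3 and MAPKAPK2, had H3K4me1 at all 3 regions in all 4 libraries. The one on chr22:41925512-41940417, at TNFRSF13C and CENPM, a centromere protein, had H3K4me1 at 1 region in each inhibitor library and at 3 and 2 with DMSO. The one on chr14:86236887-86322147, at least 582459 bp from FLRT2, its nearest gene, had no H3K4me1 in any library. The one at ZMAT3 (chr3:178968801-179072615) ended at the gene's start, where H3K4me3 measured 1723 and 1650 bp with the inhibitor and 2018 and 1671 bp with DMSO.

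In windows of 5 Mb, 2 held at least 5 gained regions that made up at least 20% of their H3K27ac regions. The window from 70 to 75 Mb of chromosome 4 held 8 of 25, with the highest rank for a region inside MOB1B, and the one from 175 to 180 Mb of chromosome 3 held 5 of 14, 2 in PEX5L, which ranked highest by peak width, and 3 with ZMAT3 as the nearest gene. The number of such windows would be 63 without the first inhibitor library, 37 without the second and 44 without the first DMSO library. Leaving out a library loosens the rule for gained regions, so higher counts are built in. The 2 windows held 0.171% and 0.259% of the H3K4me1 peaks with the inhibitor and 0.219% and 0.155% with DMSO, a difference of 0.0279 points with an exact permutation p of 0.667. They held 0.203% and 0.229% of the H3K4me3 peaks with the inhibitor and 0.208% and 0.218% with DMSO, a difference of 0.00315 points with an exact permutation p of 1. Both differences are smaller than the spread between libraries, and that for H3K4me1 turned to -0.0163 without the second inhibitor library and -0.00434 without the second DMSO library. That for H3K4me3 turned to -0.00953 without the second inhibitor library and -0.00153 without the first DMSO library, and was 0.0158 without the first inhibitor library and 0.00782 without the second DMSO library.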

How the data were processed

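The authors deposited 1 peak list for each of the 12 ChIP libraries, with chromosome, start and end and no score or height. Bowtie 1.1.2, MACS 1.4.2 and hg38 were used, per the submitters' processing notes, and the sources used here give no peak threshold. Peaks were called per library. Presence, absence and width in bp are therefore what was compared, and depth is unknown. The labels do not say whether the 2 libraries of a treatment are separate cultures. The p-values therefore reflect the spread between libraries, which may be only technical.

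Peaks overlapping by at least 1 bp or touching were merged (Python 3.11.15, numpy 2.4.6, scipy 1.17.1). A region was called gained, lost or kept by its H3K27ac peaks. A region carried a methylation mark when a peak overlapped it, and widths of several peaks of 1 library in a region were added. The RefSeq table (GRCh38.p14) gave 19974 protein-coding genes. The start came from the promoter table for 15812 genes. For the other 4162, all 715 on chromosome 8 included, strand was not used and either end counted. The nearest gene is the one whose body is closest. Shares were compared by two-sided exact permutation over the 6 assignments of 4 libraries, where the smallest p is 0.333. Code was tested on simulated data.

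Named are the 12 gained regions of highest rank (within-list width percentile of the widest peak, lower library), up to 25 at gene starts, list members, genes nearest to 3 or more regions, the 2 of highest rank in each rich window, regions with methylation in both inhibitor lists only and the 5 of lowest rank. A part of these is described, and a few counted genes are not reported here. The members and gene lists were chosen with earlier results of these data known, and the retention and width comparisons were added after seeing the files.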

Additional observations from a re-analysis of the deposited data

How the results depend on the processing

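The count of 390 gained regions was 369 with peaks within 1 kb merged and 376 without regions that have a DMSO peak within 1 kb. It was 495 with equal numbers of the widest peaks. With 1 library left out, which loosens the rule, it was 405 to 1334. The share at gene starts was 19.7% with a window of 5 kb and 9.07% to 23.1% with 1 library left out. The H3K4me1 difference was -45.0 to -9.87 points with 1 library left out and 4.49 with the widest peaks. The H3K4me3 difference was -1.54 to 0 points with 1 library left out and 0.641 with the widest peaks. Replicate numbers are shared between treatments but nothing in the labels pairs the libraries. With the number as a replicate block the differences were -27.4 and -0.769 points, each with an exact paired p of 0.5, and 0.0279 and 0.00315 points for the rich windows, each with p = 1.

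Clustering was 27.7% at 250 kb and 22.96% to 34.9% with 1 library left out. Windows of 10 Mb gave 1 rich window, and leaving out 1 library, which loosens the rule for gained regions, gave 2 to 63. The H3K4me1 difference in these windows was -0.0163 to 0.0720 points with 1 library left out, and that of H3K4me3 -0.00953 to 0.0158, or -0.00498 with the widest peaks. Within 5 kb of a kept region lay 5.38% and within 25 kb 16.2% of gained regions. With every gene of the reference table as a candidate, 7 list genes were nearest to a gained region. The retention of H3K4me1 at gained minus kept regions was -3.82 points, -5.19 to -2.45 with 1 library left out, -10.3 away from gene starts and 1.19 with the widest peaks. The cause of these shifts was not tested. The difference of median log2 widths was 0.11 to 0.28 for H3K4me1 and 0.09 to 0.12 for H3K4me3 with 1 library left out. Peaks with no score and unknown depth limit all of these comparisons to presence and width.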

Other observations

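A few microRNA genes lay at or near gained regions. The MIR5193 hairpin fell inside one on chromosome 3 near UBA7, an activating enzyme of the ISG15 pathway, and the MIR634 hairpin inside one in PRKCA, a protein kinase C gene, on chromosome 17. MIR130A lay 6094 bp from the region at YPEL4, MIR378I 2215 bp from the region at TNFRSF13C, and MIR4704 3061 bp from a region near PCDH9. These distances are positions only, and the microRNAs' expression was not measured.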
